A study of Mus musculus with 4 samples.

Results

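Sperm-only regions are stretches of autosomal DNA in which both sperm libraries of the series had a called peak of methylated DNA and neither islet library had one. To find them, the 4 deposited peak lists were merged, with touching or overlapping peaks joined into union regions. Regions holding a peak among the densest 1% of its own sperm list, by sequenced reads (tags) per kb of peak, were left out. This gave 27159 sperm-only regions, 8.84% of the 307174 union regions of all chromosomes and 22.2% (95% Wilson interval 22.0% to 22.4%) of the 122396 autosomal regions with a peak in both sperm lists. The regions were chosen by the presence of called peaks and by tags per kb, so their presence, absence, tags and widths are given below as descriptions, without a test.

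Methylated DNA was captured with an antibody against 5-methylcytosine and sequenced (MeDIP-seq), in ICR mice, an outbred strain. One group of male founders was fed a high-fat diet (33% of energy as fat) to 12 weeks of age, was then given a low dose of streptozotocin, a toxin of insulin-producing beta cells, and stayed on that diet for 4 weeks, and males with a fasting glucose of 7 to 11 mM were taken as T2D, a model of type 2 diabetes. Control founders had a control diet, and every dam had standard diet. The 4 groups, with 1 library each, were sperm of 6 control founders, sperm of 6 T2D founders, both at 16 weeks, islets of 6 offspring of control fathers and islets of 6 offspring of T2D fathers, both at 3 weeks. The labels name the sperm groups "paternal control" and "paternal T2D", do not state how DNA of the 6 animals was brought together, and give no sex for the offspring. Sperm of an adult and islets of a weanling therefore differ in tissue, age and generation at once, and these cannot be told apart. Whether the sperm held other cells after the lysis of somatic cells, or the islets held exocrine, vascular or blood cells, was not tested, since peak lists carry no cell markers.

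In mammals, cytosine methylation sits mostly at CG dinucleotides and is copied when DNA replicates. It is erased in the primordial germ cells and laid down again in the male germ line before birth, which leaves mature sperm highly methylated outside CG-rich promoters. Somatic tissues such as islets have their own unmethylated stretches, many of them at active enhancers and promoters of that cell type. MeDIP recovers more DNA where a fragment carries more methylated cytosines, though not in strict proportion, so that CG-poor DNA gives little signal even when fully methylated. No mm9 genome sequence or gene annotation was used here, so the genes and the sequence at the regions were not determined.

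Both sperm libraries were sequenced to nearly the same depth, with 31053754 unique tags in control and 31833988 in T2D, per the file headers. The depth of the islet libraries is unknown here. Called peaks held 11065974 tags in control and 11045303 in T2D sperm, against 8223861 and 8204393 in the islet lists. The smallest peak had 21 tags in either sperm list and 18 in either islet list. A missing islet call therefore means that no peak passed the caller's threshold at an islet depth that is unknown, not that the DNA was unmethylated.

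The sperm-only regions together spanned 32.4 Mb. They took in 27227 control sperm peaks, 15.4% of that list, and 27226 T2D sperm peaks, 15.2%. These peaks held 12.7% of all peak tags in control and 13.0% in T2D sperm, or 4.52% and 4.50% of the unique tags. In 27024 regions (99.5%) there was exactly 1 control and 1 T2D peak. The remaining regions in both sperm lists were 65373 in all 4 lists (53.4%), 29449 with a peak in 1 islet list (24.1%) and the 415 left out for density (0.339%). Of the 29449, 14743 had their islet peak in the control list (50.1%, interval 49.5% to 50.6%). The reverse class, autosomal regions in both islet lists and neither sperm list, held 24601 regions, 22.3% (22.0% to 22.5%) of the 110491 regions in both islet lists. The shares called in only 1 tissue were thus nearly equal in sperm and islets. They are not defined quite alike, since the 415 dense regions (0.339%) are left out for sperm and no density limit was set for islets.

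Sperm-only regions had a median width of 1086 bp, and the middle 50% lay between 882 and 1380 bp. The narrowest was 323 bp and the widest 4161 bp. A total of 10731 regions (39.5%) were 500 to 1000 bp wide, 11106 (40.9%) were 1000 to 1500 bp, and 1916 (7.05%) exceeded 2000 bp. A union region grows with the number of peaks joined in it, so single sperm peaks are the fairer comparison. The median sperm peak in a sperm-only region was 941 bp in control and 945 bp in T2D. It was 1127 and 1119 bp in regions of all 4 lists, and 835 and 824 bp in regions of a single sperm list without islet peak. Width therefore lay between that of regions called everywhere and that of regions called once, and hardly differed between control and T2D.

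Tags followed the same order. The median was 42 tags in control and 44 in T2D sperm, against 67 and 66 in regions of all 4 lists and 33 in either library for regions of a single sperm list. Between the 5th and 95th percentiles, a sperm-only region held 24 to 110 tags in control and 24 to 112 in T2D. The highest counts were 346 in control and 334 in T2D. Only 1278 regions (4.71%) had 100 tags or more in both libraries, and 2390 (8.80%) had fewer than 30 in both. Median density was 46.1 tags per kb in control and 47.1 in T2D, against 59.4 and 59.1 in regions of all 4 lists.

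Fold enrichment over the caller's background, which is the authors' own value for each peak, separated the classes less. Its median was 6.77 in control and 6.72 in T2D, against 7.51 and 7.35 in regions of all 4 lists. In the order of the whole control list, the median sperm-only region stood at percentile 37.9 by tags and 48.1 by enrichment. In the T2D list these were percentiles 41.3 and 49.4. By either measure sperm-only regions were underrepresented among the strongest peaks, with 4.37% (control) and 4.83% (T2D) in the top 10% of the list by tags and 7.11% and 7.79% in the top 10% by enrichment. Part of that follows from leaving out the densest regions.

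**Figure D1:**
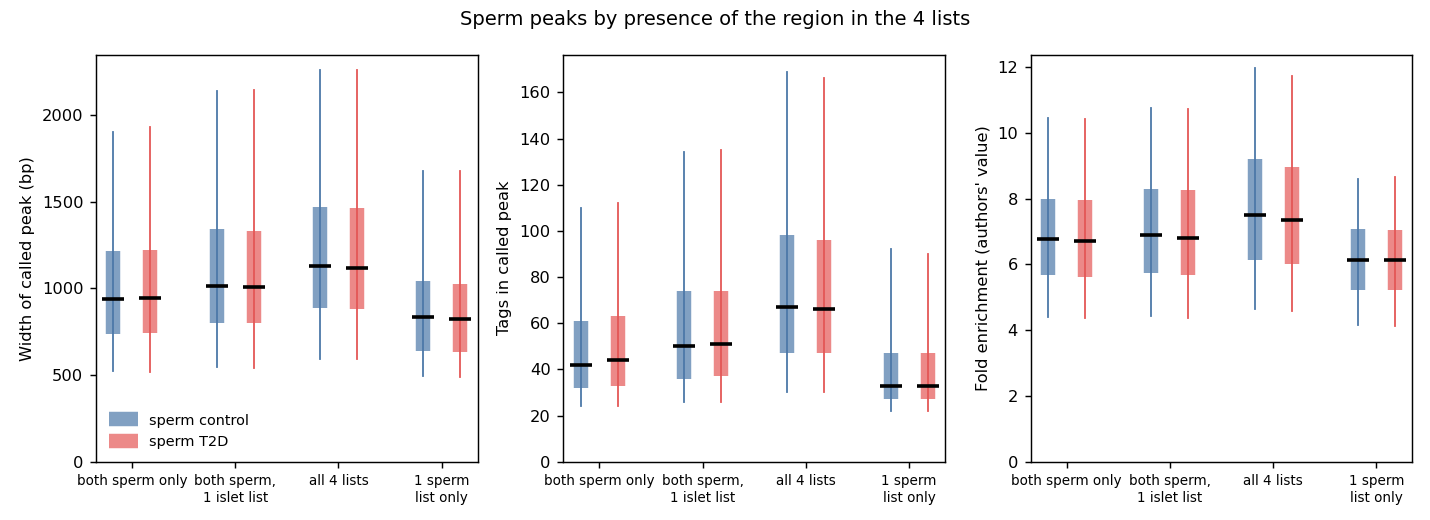
Width in bp, tags and the authors' fold enrichment of sperm peaks (vertical axes) for 4 classes of autosomal region, control in blue and T2D in red; black marks are medians, thick bars the middle 50% and thin lines the 5th to 95th percentiles. Sperm-only regions, at 42 and 44 tags, sit between regions of all 4 lists (67 and 66) and regions of a single sperm list (33 and 33), while control and T2D nearly coincide in each class.

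Regions in both sperm lists were next split into deciles by the mean of their control and T2D values, and the share without any islet peak was counted, dense regions included. By tags it was 47.6% (46.7% to 48.4%) in the lowest decile, with at most 32 tags, and 9.22% (8.72% to 9.74%) in the highest, from 120.5 tags up. By tags per kb it went from 41.4% to 10.1%, and by peak width from 37.1% to 12.5%. Each of these series declined at every step. By enrichment the share was nearly level over the lower 5 deciles, between 25.7% and 26.9%, and then declined to 13.5%.

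The islet lists differed from this by tags and width, while by tags per kb and enrichment they also declined at every step. Of regions in both islet lists, 34.1% lacked a sperm peak in the lowest decile by tags, 18.7% in decile 7 and 21.2% in the highest. By tags per kb the share went from 30.7% to 18.8%, by width from 26.7% to 20.4%, and by enrichment from 27.5% to 16.8%. Ranked by tags, the strongest sperm regions were thus without a call in the other tissue in fewer cases (9.22%) than the strongest islet regions (21.2%), and the weakest in more (47.6% against 34.1%). Ranked by enrichment the strongest stood at 13.5% against 16.8%, and the weakest at 26.7% against 27.5%, so the order was not turned around. With 1 library per group this difference has no test over libraries, and the part of the lower tag counts in islets was not tested.

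**Figure D2:**
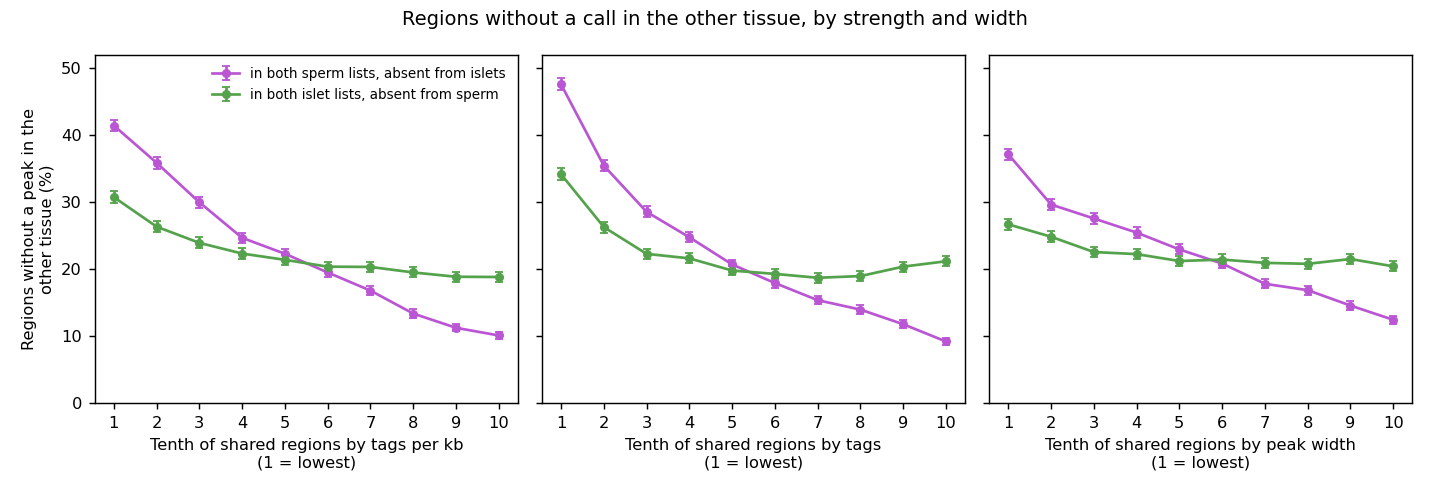
Share of regions called in both lists of a tissue that had no peak in the other tissue (vertical axis, percent), by decile of tags per kb, tags or peak width (horizontal axes, 1 is lowest); bars are 95% Wilson intervals, purple is sperm and green islets. The sperm line descends from 47.6% to 9.22% over tags, whereas the islet line stays between 18.7% and 21.6% from decile 4 on.

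Width and tags rise together, so width was also compared at similar tags. Among regions with 49.5 to 65.5 tags, the wider 50% lacked an islet peak in 22.2% (21.4% to 22.9%) and the narrower 50% in 16.5% (15.8% to 17.1%). The same order held at 37.5 to 49.5 tags (29.6% against 23.7%), at 65.5 to 93 tags (16.9% against 12.4%) and above 93 tags (11.2% against 9.76%). In the lowest quintile, of at most 37.5 tags, it was turned around, with 40.4% for wider and 42.5% for narrower regions. At similar tags above that level, wider regions thus lacked an islet peak somewhat more often. A wider peak with similar tags is also a less dense one, so this comparison cannot tell width from tags per kb. Many regions without one were still narrower, with 2017 narrower and 2712 wider at 49.5 to 65.5 tags. These counts include the dense regions left out of the sperm-only class.

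The 2 sperm libraries placed the regions alike. Over the 27024 sperm-only regions with 1 peak in each library, the overlap made up a median of 80.1% of the longer peak, and 25477 pairs (94.3%) overlapped by at least 50% of both. Summits, the positions of highest tag pile-up, lay a median of 31 bp apart, and within 100 bp in 84.2% of pairs. In regions of all 4 lists the corresponding values were 81.0%, 94.5%, 27 bp and 85.1%. Log2 tags of control and T2D correlated across sperm-only regions with Pearson's r = 0.80 and Spearman's rho = 0.76 (n = 27159 regions of the same 2 libraries, no p given), and in regions of all 4 lists with 0.84 and 0.83. Overlap in both lists was part of the selection, so these values describe how closely the chosen peaks coincide.

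The 6 sperm-only regions with the highest enrichment in the weaker of both libraries had similar tags in control and T2D and were 521 to 1318 bp wide. The first lay on chromosome 2 at 22868061 to 22868581 (build mm9), with 60 control and 59 T2D tags and enrichments of 17.13 and 17.78. The second, on chromosome 3 at 139481273 to 139481853, had 66 and 55 tags (17.71 and 16.57). On chromosome 13 at 66100880 to 66101893 there were 63 and 61 tags (16.60 and 16.57). These 3 regions lay 1.82, 2.78 and 11.3 kb from the nearest islet peak.

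The others were on chromosome 12 at 49442959 to 49443956, with 89 and 108 tags (16.11 and 17.38), and on chromosome 2 at 107547304 to 107548240, with 86 and 81 tags (16.05 and 15.70), and at 124190648 to 124191965, with 78 and 76 tags (15.48 and 15.60). Their nearest islet peaks were 11.4, 20.9 and 11.4 kb away. In all 6 the exact 95% interval of the T2D to control tag ratio, which covers counting error only, included 1. These 6 regions held 55 to 108 tags, above the medians of 42 and 44. An enrichment of 10 in both libraries was reached by 787 regions (2.90%).

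The 4 widest sperm-only regions had enrichments below the class medians of 6.77 and 6.72, and 3 of them held 213 to 334 tags in either library. Chromosome 3 at 108088373 to 108092199 had 275 control and 334 T2D tags, at enrichments of 3.77 and 3.66. Chromosome 11 at 35175816 to 35179547 had 242 and 227 tags (5.82 and 4.95), and chromosome 17 at 28303350 to 28307055 had 279 and 213 (3.99 and 4.26). The widest of all, on chromosome 10 at 86344942 to 86349102, came from a T2D peak of 3160 bp with 121 tags joined to a control peak of 1009 bp with 76, at enrichments of 5.10 and 6.52. It lay 1.02 kb from an islet peak, and the other three 9.23, 1.29 and 2.11 kb.

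The fifth widest region was singled out after its values were seen. It lay at 149765015 to 149768657 on distal chromosome 7, was 3643 bp wide, and held 282 control and 322 T2D tags, the eighth and the second highest counts of all sperm-only regions. Enrichment was 4.48 and 3.28, and the nearest islet peak was 3.10 kb away. From general knowledge of the mm9 map, and not from an annotation used here, this is the position of the imprinting control region between Igf2, a fetal growth factor gene, and H19, a non-coding RNA gene. That element is known to be methylated on the copy inherited from the father and unmethylated on the copy inherited from the mother, so that sperm carry it methylated and somatic cells carry it methylated on 1 copy of a pair. Peak lists do not show how much signal the islet libraries had below the caller's threshold at this place.

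The density limit was 124.7 tags per kb in the control and 121.5 in the T2D list. Just inside it in control were chromosome 6 at 93665418 to 93666530 (124.5 tags per kb, 95 tags) and chromosome 10 at 84237243 to 84238345 (124.4, 136 tags). Just outside were chromosome 19 at 55684692 to 55686785 (124.8, 133 tags) and chromosome 18 at 47146236 to 47147131 (124.8, 67 tags). In T2D the regions just inside were chromosome 3 at 57088436 to 57089259 (121.4, 100 tags) and chromosome 14 at 43877987 to 43878630 (121.3, 78 tags). Those just outside lay on chromosome 1, at 48519190 to 48519655 (121.5, 48 tags) and at 182293880 to 182295004 (121.6, 129 tags). The limit passed through a continuous range of densities, and the 415 regions beyond it had a median of 112 control and 115 T2D tags.

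Most sperm-only regions (69.4%) had an islet peak of some score within 5000 bp. The median distance from the edge of a region to the nearest islet peak of either list was 2969 bp (interval of the median 2927 to 3026 bp), and the middle 50% lay between 1449 and 5932 bp. This distance depended on which islet peaks were counted. Its median was 6012 bp to the best 50% of islet peaks by score and 5967 bp to islet regions called in both lists. With a score of at least 100 in all lists it was 8738 bp, over a different set of 14198 regions. Counting every islet peak, one stood within 200 bp of 877 regions (3.23%), within 1000 bp of 4748 (17.5%), within 5000 bp of 18856 and within 10 kb of 23913 (88.0%). Only 867 regions (3.19%) had none within 20 kb, 64 (0.236%) none within 50 kb and 6 none within 100 kb. The nearest other sperm peak was at about the same distance, with a median of 3191 bp.

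The same measure was taken for other classes, counting only islet peaks outside the region itself. Regions of a single sperm list gave a median of 3089 bp and regions of all 4 lists 3346 bp. The classes differed most at short range, where 17.5% (17.0% to 17.9%) of sperm-only regions but 5.33% (5.16% to 5.50%) of regions of all 4 lists had such a peak within 1000 bp, and 17.2% of single-list sperm regions did. A region of all 4 lists absorbs islet peaks that overlap it, which by construction removes some close neighbours from its count. At long range 12.0% of sperm-only regions had no islet peak within 10 kb, against 9.50% of regions of all 4 lists. This was not particular to sperm-only regions. The share was 11.0% for regions of both sperm lists and 1 islet list, and 13.3% for single-list sperm regions. It was 15.2% for regions of both islet lists only and 14.3% for regions of 1 islet list only. In the mirror-image class, regions in both islet lists only, the median distance to the nearest sperm peak was 2943 bp, with 19.1% within 1000 bp and 6.40% beyond 20 kb.

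**Figure D3:**
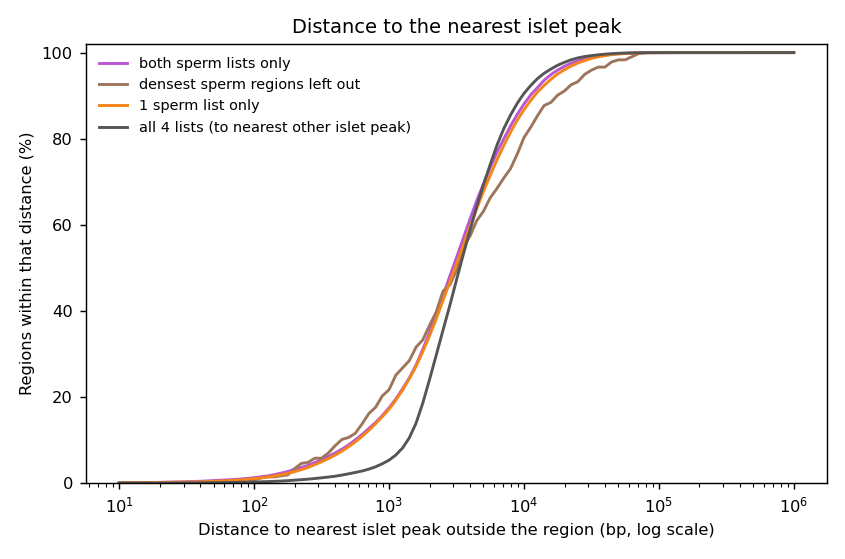
Cumulative share of regions (vertical axis, percent) with an islet peak outside the region within a given distance (horizontal axis, bp, log scale). The line of sperm-only regions runs with that of single-list sperm regions, stands above that of all 4 lists at 1000 bp (17.5% against 5.33%) and below it beyond 10 kb (88.0% against 90.5% within). The brown line is the 415 densest regions that were left out.

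At short range, the closest islet regions carried a sperm peak less often than islet regions as a whole, in part by construction. Among the 4748 sperm-only regions with an islet peak within 1000 bp, that islet region had no sperm peak of its own in 3354 cases (70.6%, 69.3% to 71.9%), against 34.0% of all autosomal islet regions. In 1485 cases (31.3%) it was a region of both islet lists only, against 11.4% of all islet regions, so that a sperm-only and an islet-only region stood side by side. A neighbouring sperm peak that reached the sperm-only region would have been joined to it, which limits how often a close islet region can carry one. Other sperm peaks were also seldom that close, with the 25th percentile of the distance to the nearest one at 1901 bp. The same share for other classes of sperm region was not computed. Beyond 10 kb the share without a sperm peak was 38.7%.

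The nearest islet regions were also counted by the father's condition. Over all sperm-only regions, the nearest islet region was called in both islet lists in 50.5%, in control only in 24.7% (24.2% to 25.2%) and in T2D only in 24.8% (24.3% to 25.3%). For all autosomal islet regions the shares were 51.2%, 24.5% and 24.3%. Within 1000 bp, control-only neighbours numbered 1266 and T2D-only neighbours 1179.

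Regions far from islet peaks were narrower and held fewer tags but had higher enrichment. Median width was 1146 bp within 1 kb of an islet peak, 1125 bp at 1 to 5 kb, 1020 bp at 5 to 20 kb, 916 bp at 20 to 50 kb and 885.5 bp in the 64 regions beyond 50 kb. Over the same classes the median tags in control were 52, 44, 37, 33 and 31, and in T2D 53, 45, 38, 33 and 36. Median enrichment rose from 6.33 to 7.54 in control, with 7.59 at 20 to 50 kb, and at every step from 6.30 to 8.13 in T2D. Median density in control was 52.5, 46.1, 43.3, 41.3 and 42.3 tags per kb in these classes. Per the file headers the caller took its background from up to 5000 bp around, and the part of signal around the peaks was not tested.

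The 6 regions farthest from any islet peak mostly held few tags. Their enrichments ran from 5.21 to 12.57, around class medians of 6.77 in control and 6.72 in T2D. On chromosome 14, 3651044 to 3652454 lay 446.6 kb from the nearest islet peak and 670.7 kb from the next sperm peak, with 46 control and 40 T2D tags. On chromosome 7, 7719559 to 7719999 lay 254.9 kb from the nearest islet peak and 293.5 kb from the next sperm peak, with 26 and 31 tags. On chromosome 6, 81024289 to 81025086 (150.6 kb) had 25 tags in either library, and on chromosome 17, 93502932 to 93503516 (138.9 kb) had 25 and 26. Both of the latter had another sperm peak at 8.17 and 37.9 kb, so only the islet lists were empty over the longer stretch.

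The other far regions were on chromosome 5. From 95936840 to 95937349 (132.1 kb) there were 43 and 41 tags, with enrichments of 11.05 and 12.57, the only one of the 6 above an enrichment of 10. From 11025351 to 11025886 (111.8 kb) there were 22 and 28 tags. The next sperm peaks were 132.1 and 195.6 kb from these regions. Around them and the far regions on chromosomes 14 and 7, no other sperm peak lay nearer than the nearest islet peak. How well reads can be mapped around these 6 regions was not tested.

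Sperm-only regions were spread along the genome. Every autosome held between 762 (chromosome 19) and 2134 (chromosome 2) of them. As a share of the regions in both sperm lists, they ranged from 20.3% (19.2% to 21.4%) on chromosome 17 to 23.4% (22.4% to 24.4%) on chromosome 10. Their number per Mb varied more, from 9.67 on chromosome 12 to 13.4 on chromosome 11. Along the length of the chromosomes, taken in 10 equal parts from the centromeric end, the share moved between 21.1% in part 10 and 23.2% in part 3.

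In 1 Mb windows the share varied further. Of 2417 windows with any union region, 2371 held a sperm-only region, with a median of 11 and at most 34. In the 2003 windows with at least 20 regions in both sperm lists, sperm-only regions made up a median of 22.0%, with the 5th and 95th percentiles at 12.5% and 35.0%. The number per window correlated with that of all regions in both sperm lists (r = 0.85 over 2417 windows, which share the libraries and their mappability, no p given).

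The most sperm-only regions stood on chromosome 8 from 37 to 38 Mb, 34 of 86 regions in both sperm lists (39.5%, 29.9% to 50.1%). Next came chromosome 2 from 92 to 93 Mb with 30 of 75 (40.0%), and chromosome 1 from 134 to 135 Mb and chromosome 13 from 57 to 58 Mb with 29 each, of 85 and 93. The highest shares were 18 of 32 (56.3%, 39.3% to 71.8%) on chromosome 8 from 17 to 18 Mb and 15 of 27 (55.6%, 37.3% to 72.4%) on chromosome 14 from 116 to 117 Mb. At the low end, chromosome 17 from 22 to 23 Mb had 0 of 22, with a Wilson interval up to 14.9%. These windows were chosen after their values were seen, as the extremes among those counted.

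Windows poor in islet regions had a larger sperm-only share. It was 28.4% (27.4% to 29.4%) in the quintile of windows with the fewest islet regions, 3 to 48 per Mb, and declined through 24.8%, 23.0% and 21.7% to 19.9% (19.5% to 20.3%) in the quintile with 130 to 166. A region in a window with many islet peaks has more chances to overlap one, so part of this order comes with the rule. Within 50 kb on either side of its centre, a sperm-only region had a mean of 10.6 other islet regions and 11.5 other sperm regions, against 11.1 and 11.9 around regions of all 4 lists.

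**Figure D4:**
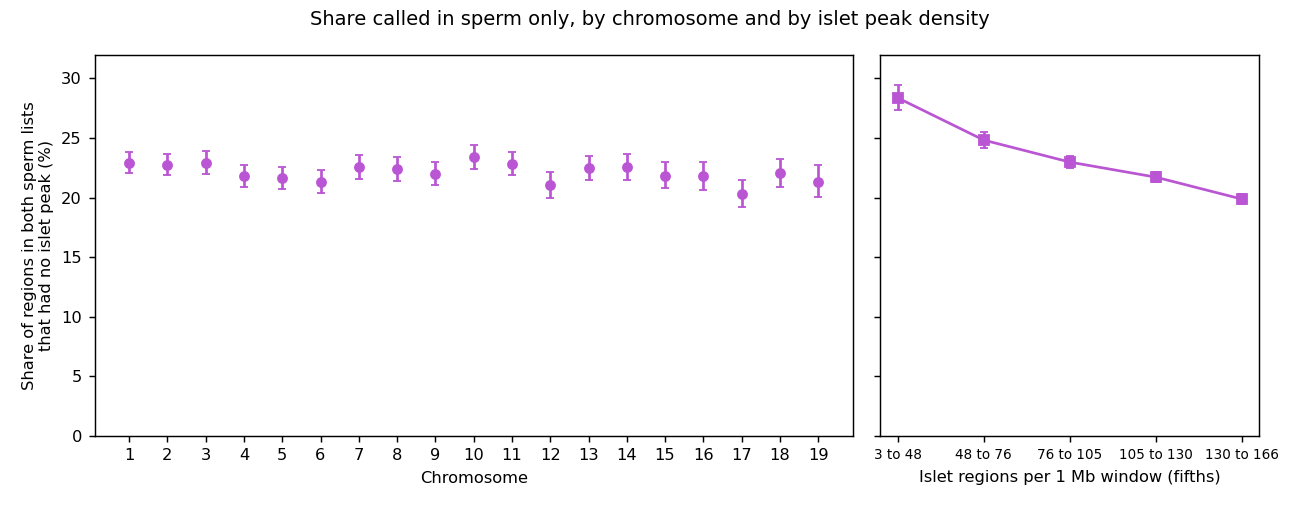
Share of autosomal regions in both sperm lists that were sperm-only (vertical axis, percent), by chromosome on the left and by quintiles of 1 Mb windows with rising numbers of islet regions on the right; bars are 95% Wilson intervals. The chromosomes lie between 20.3% and 23.4%, while the share drops from 28.4% to 19.9% from islet-poor to islet-rich windows.

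In the order of union regions, sperm-only regions followed each other about as often as their share of all regions. The region following a sperm-only region was itself sperm-only in 9.02% (8.69% to 9.37%) of cases, and sperm-only regions made up 9.01% of all autosomal union regions. Regions of all 4 lists followed their own kind in 24.4% at a base share of 21.7%. After a sperm-only region, a region of both islet lists only came in 9.89% (9.54% to 10.3%) at a base share of 8.16%, and a region of all 4 lists in 20.7% (20.3% to 21.2%). Of the runs of consecutive sperm-only regions, 22502 had a single member, 1995 had 2, 185 had 3, 23 had 4 and 4 had 5.

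Clusters were also formed by distance, joining sperm-only regions with a gap of at most 10 kb. These clusters held 6801 regions, or 25.04% (24.5% to 25.6%), in 3113 clusters of 2 or more. There were 2628 pairs, 406 clusters of 3, 70 of 4 and 9 of 5 or 6. The median gap between neighbours was 48.5 kb. The 24601 regions of both islet lists only, which are fewer, had 21.2% in clusters and a median gap of 58.2 kb. The more numerous classes had larger shares in clusters, 44.2% of the 58320 single-list sperm regions and 53.0% of the 65373 regions of all 4 lists.

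Of the 9 clusters of 5 or 6 regions, 4 are described, those with the most regions and, among ties, the shortest span. The largest had 6 regions each. One spanned 34.7 kb on chromosome 14 at 25927439 to 25962164, with 35 to 76 tags per region in control and 36 to 86 in T2D, and 3 islet regions in between. The other spanned 35.5 kb on chromosome 13 at 52535667 to 52571214, with 50 to 158 and 38 to 152 tags and again 3 islet regions. In the first, 4 of 6 regions had more scaled tags in T2D, and in the second 2 of 6.

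The shortest clusters of 5 regions were on chromosomes 8 and 12. On chromosome 8 at 127609320 to 127629759 (20.4 kb), 4 islet regions were interspersed and the nearest islet peaks were only 37 to 1694 bp away. On chromosome 12 at 72650251 to 72675371 (25.1 kb), by contrast, the 5 regions were the only union regions of the stretch. They held 35 to 118 tags in control and 36 to 124 in T2D, and their nearest islet peaks were 3321 to 13784 bp away.

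The design asks whether diabetes of the founders goes with altered sperm methylation, so tags were compared between T2D and control sperm after scaling to unique tags. With 1 library per group there is no replicate check. Over the 27159 sperm-only regions the median log2 ratio of T2D to control was 0.00 (interval of the median -0.01 to 0.00). That interval is taken over regions and does not cover variation between libraries or animals. The SD was 0.43 across regions, with 90% of values between -0.71 and 0.70. Over all 122396 regions in both sperm lists the median was -0.04 and the SD 0.43, and over regions of all 4 lists the median was -0.05.

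At least 2-fold more tags in T2D were found in 363 sperm-only regions (1.34%), beside 1.26% of all regions in both sperm lists. At least 2-fold fewer were found in 374 (1.38%), beside 1.69% of all regions. The share with more tags was thus near that of all regions, and the share with fewer tags was somewhat below it. Of the 737 sperm-only regions past 2-fold, 49.3% were higher in T2D. Among all regions in both sperm lists this was 42.6% of 3608. The numbers of regions higher and lower go with tag level, in part by construction. A call in both lists needs at least 21 tags in each and so limits the fold of weak regions. In the quintile with the fewest tags (42 to 63 over both libraries) this floor leaves almost no room for a 2-fold difference. There 0 of 5432 regions were higher and 1 lower, which says nothing about weak regions. In the quintile with 98 to 135 tags 124 (2.28%) were higher and 120 (2.21%) lower. Shares of all regions at the same tag levels were not computed. Without scaling to depth, 442 sperm-only regions (1.63%) were higher and 333 (1.23%) lower, so that 57.0% of these were higher. Over all regions in both sperm lists the unscaled shares were 1.54% higher and 1.52% lower. Every chromosome had regions of either direction, and the median log2 ratio by chromosome lay between -0.04 and 0.02.

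Differences in tags went with differences in the width of the called peak. In the 363 regions with at least 2-fold more tags in T2D, the T2D peak was the wider one in 358, with a median of 1700 bp against 799 bp in control, while density was 49.5 against 42.5 tags per kb. In the 374 regions with at least 2-fold fewer, the T2D peak was the narrower one in 369, with 741.5 against 1607.5 bp, and density was 45.3 against 47.9 tags per kb. Across all sperm-only regions, the log2 ratio of width correlated with that of tags (r = 0.67, n = 27159 regions of the same 2 libraries, no p given). Taken as tags per kb of peak, 116 regions (0.427%) were at least 2-fold higher in T2D and 154 (0.567%) lower, beside 0.649% and 0.898% of all regions in both sperm lists. Of the 737 regions past 2-fold in tags, 9 were also 2-fold higher and 17 also 2-fold lower in density.

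**Figure D5:**
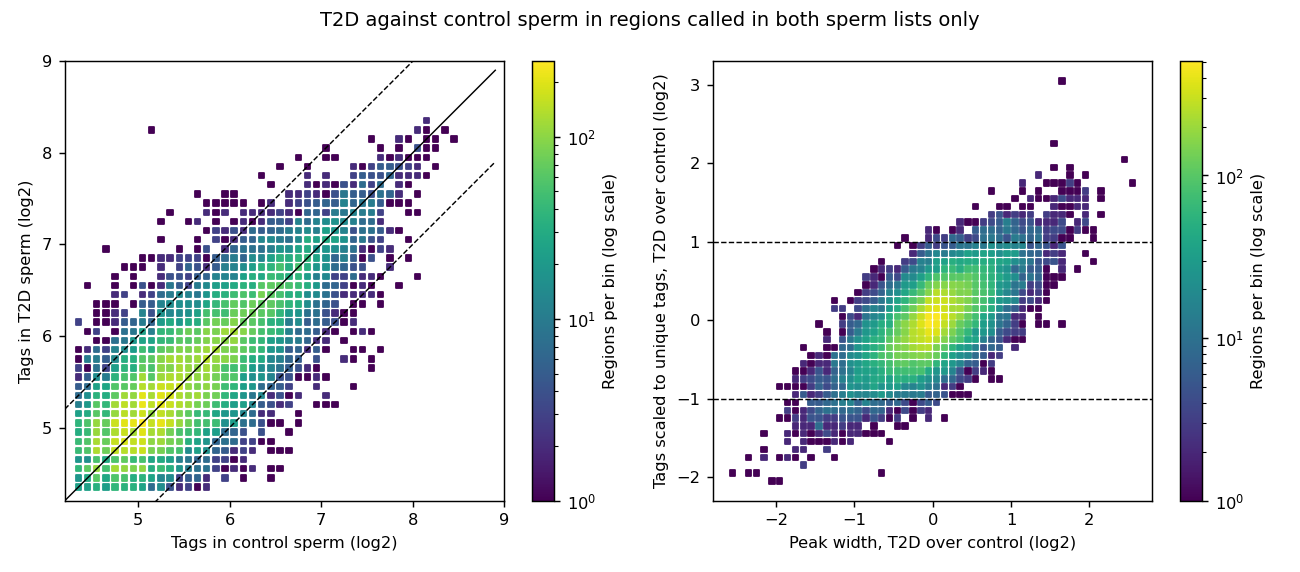
Left, tags in control (horizontal axis, log2) against tags in T2D sperm (vertical axis, log2) for the 27159 sperm-only regions, colour giving regions per bin on a log scale, with equality as a solid and 2-fold as dashed lines; right, the log2 ratio of scaled tags (vertical axis) against that of peak width (horizontal axis). Most regions lie within 2-fold, those beyond it are at the ends of a slanted cloud in which wider peaks have more tags (r = 0.67), and 1 region stands apart with 35 and 297 tags.

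The largest ratio of T2D to control, also the largest among all 122396 regions, was on chromosome 7 at 38972426 to 38975135. There the T2D peak of 2710 bp held 297 tags and the control peak of 854 bp held 35, a scaled ratio of 8.28 (exact interval 5.82 to 12.1, counting error only), and density was 109.6 against 41.0 tags per kb. A further control sperm peak of 2636 bp with 131 tags began at 38977685, where T2D sperm had none. In islets the same stretch had a control peak of 3237 bp with 250 tags from 38975594, 458 bp from the sperm-only region, and T2D peaks of 687 and 901 bp with 33 and 36 tags. Called peaks thus differed between control and T2D at neighbouring positions in both tissues. The islet counts are unscaled and come from peaks of unequal width, with 77.2 tags per kb in control against 48.0 and 40.0 in T2D. In sperm, the opposite direction at the further peak rests on a missing T2D call, which does not show that signal was absent.

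The next largest were on chromosome 13 at 11894166 to 11896489, with 25 control and 122 T2D tags (4.76-fold, 3.08 to 7.64), and on chromosome 2 at 170997318 to 170999794, with 22 and 96 (4.26-fold, 2.66 to 7.11). In the opposite direction, chromosome 1 at 120224244 to 120226513 had 95 control and 23 T2D tags, 4.23-fold more in control (2.66 to 7.00). Chromosome 8 at 67510966 to 67513009 had 86 and 22 (4.01-fold, 2.49 to 6.72), and chromosome 10 at 80301505 to 80304120 had 101 and 26 (3.98-fold, 2.57 to 6.39). In each of these 5 regions the library with more tags had a peak of over 2000 bp and the other a peak of under 700 bp, so the called stretch was longer where tags were more. As the extremes of 27159 regions they were picked for their difference, and their intervals do not allow for that choice.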

How the data were processed

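The 4 deposited peak lists, 1 per library, are on build mm9, and the submitters' processing notes also name CASAVA 1.4. Per the file headers, sperm peaks were called with MACS on single libraries without an input control, at a p-value threshold of 1.00e-05. The sources used here do not name the caller of the islet lists or its settings. The deposited tag counts are whole reads per peak, not scaled to depth. The deposited fold enrichment is a ratio over the caller's background, and the deposited score is the negative log10 of the p-value of each peak times 10. Widths in bp are as deposited.

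Union regions, classes and distances (edge to edge) were computed with numpy 2.4.6 and pandas 2.3.3, checked against bedtools 2.31.1, which gave the same 307174 union regions and the same distances, and tested on simulated data. Tags of a region are the sum over its peaks in a library, and enrichment is the highest value. Intervals are at 95%, from scipy 1.17.1. The exact intervals of tag ratios cover counting error of reads only, and reads carried no molecular identifiers. Wilson intervals, and those of medians from order statistics, take each region as an independent draw, although neighbouring regions are not independent. None of these intervals covers variation between libraries or animals. Groups of 1 library allow no test over replicates.

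Named regions are the 6 with the highest enrichment in the weaker sperm library, the 6 farthest from islet peaks, the 4 widest, the 4 clusters with the most regions (ties by shorter span), the 3 largest tag ratios each way and those beside the density limit. The fifth widest region and the 1 Mb windows were outside this rule and chosen after their values were seen. The regions and measures were chosen with earlier results of these data known. Gene symbols of the RefSeq table on another build (GRCm38) were not used.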

Additional observations from a re-analysis of the deposited data

How the results depend on the processing

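The number of sperm-only regions stayed between 22411 and 27574, within 1.5 times of 27159, under 8 alternatives, among them other joining distances, no islet peak within 1000 bp, another limit on density and X and Y kept. It was 8303 with no islet peak allowed within 5000 bp, 14198 with a score of at least 100 in all lists and 6700 with the sperm lists cut to the best 50% by score. The score limit also removed islet peaks, so the 14198 are not a subset of the 27159. The median score of the 27159 was 80.7 in either sperm list, so most of them did not reach 100. How many of the 14198 had a weaker islet peak in the main setting was not counted. Joining peaks within 1000 bp gave a median width of 1110 bp, 41 and 42 tags in control and T2D, a distance to the nearest islet peak of 3735 bp and 21.1% of regions in clusters. A score of at least 100 gave 1166 bp, 62 and 63 tags and a distance of 8738 bp. Median distance was 4083.5 bp from centre to centre, 6012 bp to the best 50% of islet peaks by score and 5967 bp to islet regions called in both lists. The share in clusters was 12.8% with a gap of 5 kb and 43.5% with 20 kb. Regions higher and lower in T2D numbered 363 and 374 in the main setting. At 1.5-fold they numbered 2150 and 2241 (7.92% and 8.25%), beside 7.11% and 9.11% of all regions in both sperm lists. By tags per kb they numbered 116 and 154 (0.427% and 0.567%), beside 0.649% and 0.898%. With a score of at least 100 they numbered 74 and 88 of 14198 (0.521% and 0.620%), beside 0.431% and 0.693% of 40840. Fewer peaks or wider joins cause part of these moves by construction, and otherwise the cause was not tested. No paired analysis was possible because each group had 1 library. The unknown islet depth limits every statement on absence from islets.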
